A study of Mus musculus with 15 samples.

Results

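The matrix metalloproteinases (MMP genes), their tissue inhibitors (TIMP genes) and the ADAMTS and ADAMTS-like genes were described in mouse hearts after saline or after 4, 8 or 11 days of isoproterenol. Members were taken by symbol (Mmp, Timp1 to Timp4, Adamts or Adamtsl followed by a number) and by a sum of at least 10 expected counts over 15 hearts. Of 51 genes with such a symbol, 45 reached that sum, out of 26862 genes tested in all. They were 18 MMP, 4 TIMP, 18 ADAMTS and 5 ADAMTS-like genes. The 6 left out were Adamts18, Mmp10, Mmp1a, Mmp1b, Mmp20 and Mmp7, with sums from 0 to 5 counts. The hearts came from male C57BL6 mice aged 12 weeks that carried no engineered allele. Isoproterenol, which stimulates β-adrenergic receptors, was injected under the skin at 50 mg/kg/day for 4 days (n = 4 hearts), 8 days (n = 3) or 11 days (n = 4), and saline was given to the control mice (n = 4). A single saline group served all times, and how many days each of its mice was injected is not given in the labels.

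MMPs are zinc proteinases that cut collagens and other matrix proteins, and most are made as inactive precursors that another proteinase must open. TIMPs bind the active zinc site of MMPs and, in the case of TIMP3, of many ADAM and ADAMTS enzymes too. ADAMTS proteinases trim procollagens, cut the large proteoglycans aggrecan and versican, or process other secreted proteins, while ADAMTS-like proteins lack the proteinase domain and bind fibrillin microfibrils. In the heart most of these genes are read in fibroblasts, vessel cells and immune cells, and Timp4 is known for its high level in cardiac muscle.

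Libraries of total RNA held 25.4 to 117.8 M expected counts, of which 47.5 to 58.4% came from the mitochondrial genome. Levels are given as CPM, counts scaled to 1 M per library on TMM-scaled library sizes, and levels of different genes are compared only as FPKM, which divides by length. Each pair of groups was compared by edgeR's quasi-likelihood test over all 26862 genes, and a gene was called past the threshold at an adjusted p below 0.05. Fold changes are log2 values with their standard error (SE). The TMM scale matters at 4 days, since library size as the only scaling put the median gene at 0.21 instead of 0.006 (log2), and all 4-day changes are stated on the TMM scale. Of 8 cardiomyocyte markers the summed level lay between 29372 and 37253 CPM in every library, so the markers of heart muscle were present throughout. In 8-day A, 15.8% of the counts fell in Lars2 and CT010467.1. In whole tissue, a lower share of a cell type and less RNA per cell of that type cannot be told apart.

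In saline hearts, Timp3 held the highest level per length of all members, at 27.0 ± 3.35 FPKM (SD, n = 4). Timp2 followed at 13.1 ± 2.23 FPKM, Adamtsl5 at 12.1 ± 2.41 FPKM and Mmp15, a membrane-bound MMP, at 8.48 ± 0.892 FPKM. These standard deviations overlap between Timp2 and Adamtsl5, whereas Timp3 lay above both. Mmp2, a gelatinase gene, stood at 7.67 ± 1.15 FPKM within the spread of Mmp15. Altogether 19 members reached a saline mean of 1 FPKM, 15 lay between 0.1 and 1 FPKM, and 11 lay under 0.1 FPKM. Among these 11 were Mmp13 and Mmp8, the interstitial collagenases, at 0.065 ± 0.0532 and 0.0075 ± 0.005 FPKM.

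After 4 days of isoproterenol, 19 of the 45 members were higher than in saline and 4 were lower (42.2% and 8.9%). Over all genes tested, 6.05% were called higher at 4 days and 3.40% lower. The median log2 fold change of the members was 0.35, or 0.31 over the 44 members without Adamts16, which had no saline count, against 0.006 over all genes. At 8 days 6 members were higher and 1 was lower, beside 1.07% and 1.20% of all genes, with a median of 0.23. At 11 days 5 were higher and 4 lower, beside 1.80% and 1.95% of all genes, with a median of 0.13. In all, 26 members were called at 1 or more times and 19 at none. Mmp2, Mmp14, Adamts12 and Adamts15 were higher than in saline at all 3 times. The 3 comparisons share the same saline hearts.

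The TIMPs split at 4 days, with Timp1 and Timp2 higher than in saline and Timp3 and Timp4 lower. Timp1 encodes a secreted inhibitor that is induced in many injured tissues. It stood at 0.126, 0.529, 0.279 and 0.295 CPM in saline A to D, at 12.1, 2.90, 5.25 and 6.97 CPM in 4-day A to D, at 0.762, 0.55 and 1.82 CPM in 8-day A to C, and at 0.525, 0.33, 1.17 and 0.508 CPM in 11-day A to D. Every 4-day and 8-day heart lay above every saline heart, whereas the 11-day hearts overlapped them. The saline values rest on 7 to 33 counts per library. The log2 fold change was 4.58 (SE 0.46, adjusted p = 0.000162) at 4 days, 1.84 (SE 0.46, adjusted p = 0.0576) at 8 days and 1.12 (SE 0.43, adjusted p = 0.186) at 11 days. At 8 days Timp1 was called without saline B (adjusted p = 0.0187) or without 8-day B (0.0387). The 8-day rise also passed with library size only (0.0018), no filter (0.0104), DESeq2 with effective lengths (0.0269) and the replicate letter as a block (0.0216). From 4 to 8 days Timp1 fell by 2.70 (SE 0.47, adjusted p = 0.042), and from 4 to 11 days it fell by 3.44 (SE 0.41, adjusted p = 0.000365). The call between 4 and 8 days was lost on leaving out 4-day D (adjusted p = 0.0949), 8-day A (0.18) or 8-day B (0.207), with robust dispersions (0.27), with effective lengths as offsets (0.0571) and under filterByExpr (0.0881).

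**Figure D1:**
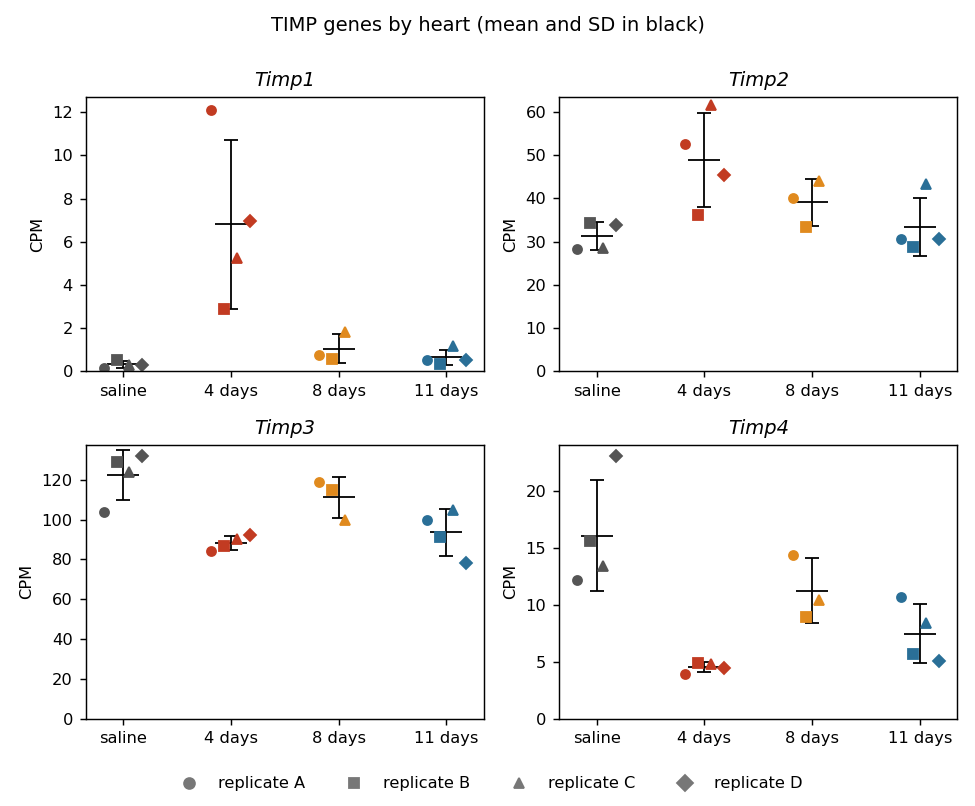
Level of the 4 TIMP genes in each heart, in CPM on linear axes that start at 0, with 1 symbol per replicate and the group mean and SD in black. Timp1 reached 2.90 to 12.1 CPM at 4 days against at most 0.529 CPM in saline, while all 4-day hearts lay below all saline hearts for Timp3 and Timp4.

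Timp4 moved the other way. It stood at 12.2, 15.6, 13.4 and 23.1 CPM in saline A to D, at 3.94, 4.88, 4.77 and 4.48 CPM in 4-day A to D, at 14.4, 8.93 and 10.4 CPM in 8-day A to C, and at 10.7, 5.70, 8.39 and 5.04 CPM in 11-day A to D. The 4-day hearts were the lowest of all and lay close together, 8-day A reached the saline range, and every 11-day heart stayed below every saline heart. Timp4 fell by 1.82 (SE 0.17, adjusted p = 0.000111) at 4 days and by 1.10 (SE 0.23, adjusted p = 0.0167) at 11 days, and stood at -0.50 (SE 0.20, adjusted p = 0.295) at 8 days. The 11-day call was lost on leaving out 11-day B (adjusted p = 0.0593), with effective lengths as offsets (0.0698 in edgeR, 0.0917 in DESeq2) and with robust dispersions (0.143). Between the times, Timp4 was higher at 8 than at 4 days by 1.31 (SE 0.15, adjusted p = 0.0167; 0.0661 without 4-day D). It was also higher at 11 than at 4 days, by 0.72 (SE 0.19, adjusted p = 0.03), a call lost on leaving out any 1 of 4-day A, C and D and 11-day A and C (adjusted p from 0.0567 to 0.0969), as well as with library size only (0.0696), effective lengths as offsets (0.0899), robust dispersions (0.126) or all groups in one fit (0.0509).

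Timp2, whose product also helps MMP14 to activate pro-MMP2, showed a smaller change. It stood at 28.2, 34.3, 28.6 and 33.9 CPM in saline A to D, at 52.7, 36.1, 61.7 and 45.4 CPM in 4-day A to D, at 40.1, 33.3 and 44.0 CPM in 8-day A to C, and at 30.7, 28.7, 43.3 and 30.5 CPM in 11-day A to D. The 4-day hearts lay above all saline hearts, and the later groups overlapped saline, with 11-day C apart from the other 11-day hearts. Timp2 rose by 0.66 (SE 0.14, adjusted p = 0.00894) at 4 days and stood at 0.32 (SE 0.12, adjusted p = 0.217) at 8 days and 0.09 (SE 0.12, adjusted p = 0.791) at 11 days. From 4 to 11 days it fell by 0.57 (SE 0.15, adjusted p = 0.0299), a call lost on leaving out any 1 of 4-day A, C and D and 11-day A, B and D (adjusted p from 0.0509 to 0.105) and with robust dispersions (0.137).

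Timp3, which encodes an inhibitor held in the matrix, stood at 104, 129, 124 and 132 CPM in saline A to D, at 84.2, 86.9, 90.2 and 92.1 CPM in 4-day A to D, at 119, 115 and 99.7 CPM in 8-day A to C, and at 100, 91.3, 105 and 78.1 CPM in 11-day A to D. The 4-day hearts were below every saline heart, and the 8-day and 11-day hearts overlapped saline. Timp3 fell by 0.46 (SE 0.0904, adjusted p = 0.00567) at 4 days, stood at -0.14 (SE 0.11, adjusted p = 0.652) at 8 days, and reached -0.39 (SE 0.10, adjusted p = 0.0499) at 11 days, just past the threshold. With library size only, the 4-day value was -0.26 (adjusted p = 0.174). The 11-day call was lost on leaving out any 1 of saline B, C and D and the 11-day hearts (adjusted p from 0.0519 to 0.146), with library size only (0.167), with DESeq2 size factors (0.0544), under filterByExpr (0.0524) and with effective lengths as offsets (0.058).

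Per length, the makeup of TIMP RNA lay outside the saline range in every 4-day heart. Timp3 made up 57.8 to 62.9% of the summed TIMP FPKM in saline hearts and 29.1 to 44.7% in 4-day hearts. Timp1 made up 0.479 to 1.5% in saline and 9.45 to 26.6% at 4 days, with the lowest 4-day share in 4-day B. The share of Timp4 was 7.95 to 14.9% in saline, 1.9 to 3.33% at 4 days, 5.39 to 9.31% at 8 days and 4.21 to 9.11% at 11 days. Set against the 18 MMP genes, the summed TIMP FPKM was 1.84 to 2.11 times the summed MMP FPKM in saline hearts. That ratio was 1.14 to 1.48 at 4 days, 1.16 to 1.7 at 8 days and 1.02 to 1.3 at 11 days. All 11 treated hearts lay below all 4 saline hearts, a description to which no test was applied.

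**Figure D2:**
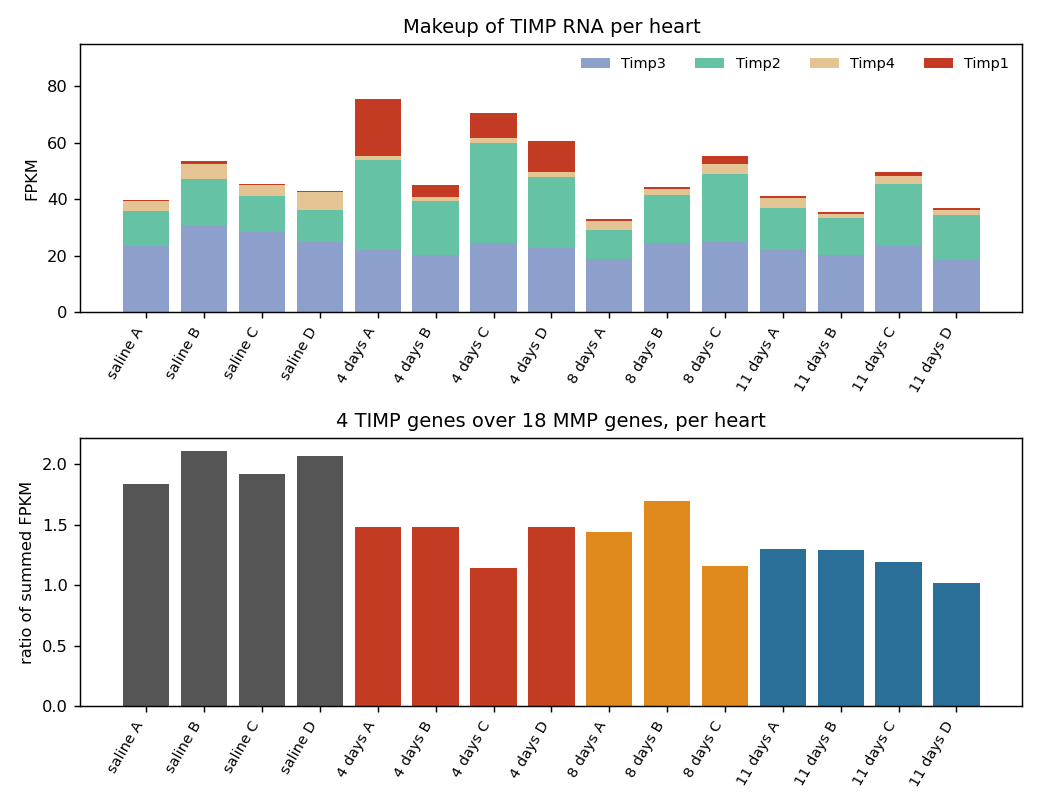
Upper panel, stacked FPKM of the 4 TIMP genes in each of the 15 hearts; lower panel, summed FPKM of the 4 TIMP genes divided by that of the 18 MMP genes, both from 0. The ratio is at least 1.84 in every saline heart and at most 1.7 in every treated heart, and the Timp1 part of the bars is widest in the 4-day hearts.

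Among the TIMP genes, 3 lie inside synapsin genes on the opposite strand, and the strand setting of the counting is not given in the sources used here. Timp1 shares no exon base with Syn1, Timp4 shares 90 exon bases with Syn2, and Timp3 shares 1733 exon bases (21.3% of its own) with Syn3. Syn1 held 5 to 51 counts per library, Syn2 19 to 103 and Syn3 29 to 198, against 7 to 1396 for Timp1, 137 to 1589 for Timp4 and 2723 to 14619 for Timp3. The part of the synapsin reads in these values was not tested.

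Promoter windows of 250 bases before and 50 after the start were held by RefSeq (GRCm38.p6) for 30 of the 45 members, in 32 windows. The windows of Timp1 and Timp4 are shown because, of the 4 TIMP genes, these moved most at 4 days, in opposite directions. Timp1 lies at chrX:20870166-20874735 on the plus strand with its window at chrX:20869916-20870215. Timp4 lies at chr6:115241892-115252205 on the minus strand with its window at chr6:115252156-115252455. Neither holds the exact AP-1 letters TGACTCA (or the reverse complement TGAGTCA) or the TATA box TATAAA (or TTTATA), so both are in lower case throughout. Variants of these letters were not searched for, so TGAGTAA near the end of the Timp1 window is not marked.
Timp1: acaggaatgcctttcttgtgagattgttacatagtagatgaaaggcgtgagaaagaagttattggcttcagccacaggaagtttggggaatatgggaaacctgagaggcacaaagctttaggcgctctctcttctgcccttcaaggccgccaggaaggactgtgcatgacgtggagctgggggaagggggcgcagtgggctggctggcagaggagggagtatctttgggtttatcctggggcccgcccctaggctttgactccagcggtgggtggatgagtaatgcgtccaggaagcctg
Timp4: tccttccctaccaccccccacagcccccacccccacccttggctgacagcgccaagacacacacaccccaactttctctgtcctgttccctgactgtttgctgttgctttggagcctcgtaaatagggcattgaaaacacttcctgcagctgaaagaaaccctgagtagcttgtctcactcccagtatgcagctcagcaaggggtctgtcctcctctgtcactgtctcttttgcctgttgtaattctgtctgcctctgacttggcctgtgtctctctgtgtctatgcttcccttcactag

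Mmp2 and Mmp14 rose together, at all 3 times. Mmp2 encodes the gelatinase of fibroblasts, which cuts basement membrane collagen and denatured fibrillar collagen. It stood at 19.8, 25.8, 19.1 and 23 CPM in saline A to D, at 57.2, 37.1, 75.9 and 51.2 CPM in 4-day A to D, at 45.5, 39.4 and 67.9 CPM in 8-day A to C, and at 43.3, 37.4, 65.6 and 44.8 CPM in 11-day A to D. Every treated heart lay above every saline heart. The log2 fold change of Mmp2 was 1.35 (SE 0.17, adjusted p = 0.000607) at 4 days, 1.21 (SE 0.16, adjusted p = 0.00167) at 8 days and 1.12 (SE 0.15, adjusted p = 0.00128) at 11 days. These calls held under every alternative tried, and no pair of treated times was called different (adjusted p from 0.549 to 0.898).

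Mmp14 encodes MT1-MMP, the membrane-bound activator of pro-MMP2. It stood at 2.70, 4.00, 3.62 and 3.04 CPM in saline A to D, at 12.0, 5.11, 14.2 and 9.62 CPM in 4-day A to D, at 5.34, 5.04 and 6.67 CPM in 8-day A to C, and at 4.14, 4.93, 7.14 and 5.64 CPM in 11-day A to D. Again every treated heart exceeded every saline heart, with 4-day B near the later groups. The change was 1.63 (SE 0.25, adjusted p = 0.00122) at 4 days, 0.76 (SE 0.16, adjusted p = 0.0246) at 8 days and 0.70 (SE 0.17, adjusted p = 0.0313) at 11 days. The 8-day call was lost on leaving out any 1 of saline A and D and 8-day A and C (adjusted p from 0.0542 to 0.158), with library size only (0.247) and with all groups in one fit (0.124). The 11-day call was lost on leaving out any 1 of saline A, C and D and 11-day B, C and D (adjusted p from 0.0527 to 0.084), with effective lengths as offsets (0.0888) and with all groups in one fit (0.105). From 4 to 11 days Mmp14 fell by 0.93 (SE 0.24, adjusted p = 0.0235), a call lost on leaving out any 1 of 4-day A and C and 11-day A, B and D (adjusted p from 0.0583 to 0.077), with effective lengths as offsets (0.0537 in edgeR, 0.095 in DESeq2) and with robust dispersions (0.16).

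**Figure D3:**
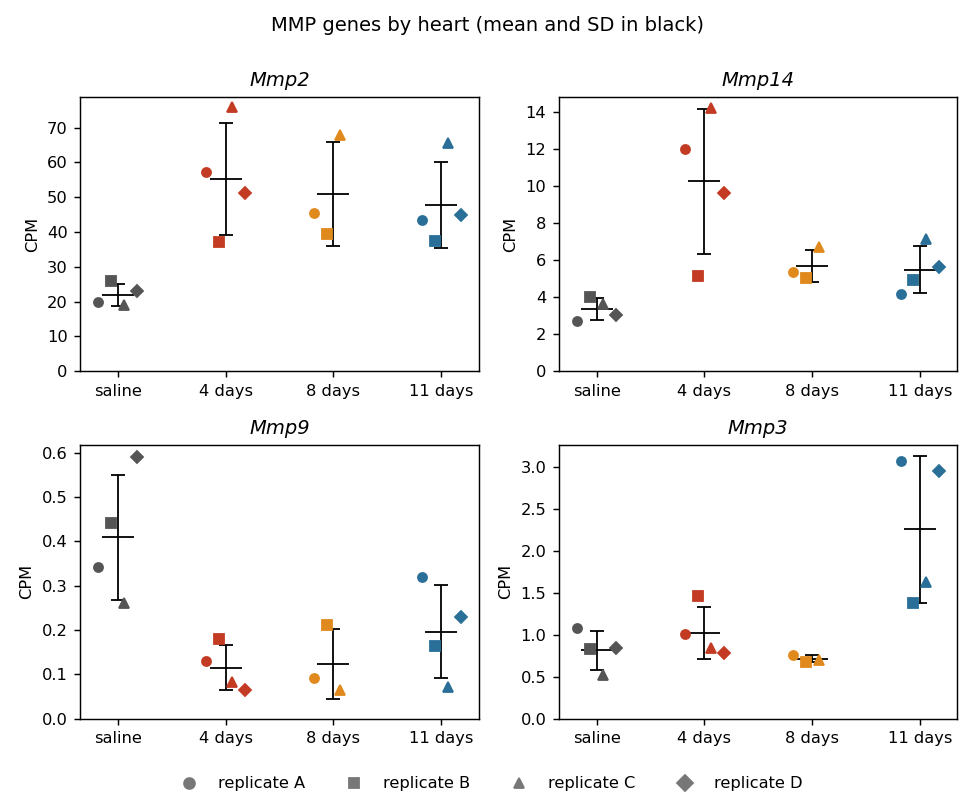
Level of Mmp2, Mmp14, Mmp9 and Mmp3 in each heart, in CPM on linear axes that start at 0, with 1 symbol per replicate and the group mean and SD in black. Mmp2 and Mmp14 lie above saline in all treated hearts, Mmp9 lies below saline at 4 and 8 days, and Mmp3 lies above saline in the 11-day hearts.

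Mmp9, the gelatinase of neutrophils and macrophages, was measured on 2 to 31 counts per library. It stood at 0.342, 0.441, 0.262 and 0.591 CPM in saline A to D, at 0.131, 0.18, 0.0836 and 0.0654 CPM in 4-day A to D, at 0.0915, 0.212 and 0.0638 CPM in 8-day A to C, and at 0.319, 0.165, 0.0717 and 0.229 CPM in 11-day A to D. All 4-day and 8-day hearts lay below all saline hearts. Mmp9 fell by 1.73 (SE 0.39, adjusted p = 0.0129) at 4 days and stood at -1.71 (SE 0.52, adjusted p = 0.125) at 8 days and -0.92 (SE 0.40, adjusted p = 0.255) at 11 days. The 4-day call was lost on leaving out 4-day C (adjusted p = 0.054) and with effective lengths as offsets (0.152 in edgeR, 0.127 in DESeq2). None of 6 neutrophil markers tested passed the threshold at 4, 8 or 11 days, and their summed level was 2.15 to 2.88 CPM in saline, 1.9 to 2.96 CPM at 4 days and 2.07 to 2.79 CPM at 8 days. In 11-day A that sum was 5.94 CPM, against 1.72 to 2.91 CPM in the other 11-day hearts, and 11-day A was also the highest 11-day heart for Mmp9, Mmp8 and Mmp3. The part of neutrophils in these values was not tested.

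Mmp3 encodes stromelysin-1, which cuts proteoglycans and basement membrane and can activate other MMPs. It was higher than in saline at 11 days and at neither earlier time. Mmp3 stood at 1.08, 0.824, 0.515 and 0.844 CPM in saline A to D, at 1.01, 1.46, 0.836 and 0.785 CPM in 4-day A to D, at 0.762, 0.677 and 0.702 CPM in 8-day A to C, and at 3.07, 1.38, 1.63 and 2.95 CPM in 11-day A to D. The 11-day hearts lay above all saline and all 8-day hearts, with 11-day A and D the highest. The log2 fold change was 0.35 (SE 0.27, adjusted p = 0.497) at 4 days, -0.17 (SE 0.30, adjusted p = 0.883) at 8 days and 1.53 (SE 0.29, adjusted p = 0.0105) at 11 days. Mmp3 was also higher at 11 than at 4 days, by 1.18 (SE 0.26, adjusted p = 0.0121), and both calls held under every alternative. Against 8 days the difference was 1.68 (SE 0.30, adjusted p = 0.0516), which passed without 11-day B (0.037) or 11-day C (0.0316). It also passed with library size only (0.00278), no filter (0.000717), DESeq2 with effective lengths (0.0011) and the replicate letter as a block (0.00366). With robust dispersions (0.0396) and with DESeq2 size factors (0.0485) it passed too, so that 8 of 16 alternatives called it.

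Mmp3 sits in a cluster of MMP genes on chromosome 9 (GRCm38, GENCODE M21), 76.3 kb from Mmp12 and 102.5 kb from Mmp8. Mmp12 encodes macrophage elastase and Mmp13 collagenase-3. The windows of Mmp3, Mmp12 and Mmp13 are shown because they were the 3 of the 32 member windows that hold the AP-1 letters TGACTCA or TGAGTCA (9.38%, against 5.20% of 32851 windows in RefSeq), and these neighbours were called at different times or at none. All 3 also hold TATAAA on the plus strand, which 21.9% of member windows and 13.6% of all windows hold on either strand. Capitals mark both motifs. The AP-1 letters start 46, 44 and 35 bases before the listed start of Mmp3, Mmp12 and Mmp13. The windows lie at chr9:7445572-7445871, chr9:7347124-7347423 and chr9:7272264-7272563, all on the plus strand, and for Mmp12 the window of the second of its 2 listed starts is printed. A match of letters is not evidence of a bound site.
Mmp3: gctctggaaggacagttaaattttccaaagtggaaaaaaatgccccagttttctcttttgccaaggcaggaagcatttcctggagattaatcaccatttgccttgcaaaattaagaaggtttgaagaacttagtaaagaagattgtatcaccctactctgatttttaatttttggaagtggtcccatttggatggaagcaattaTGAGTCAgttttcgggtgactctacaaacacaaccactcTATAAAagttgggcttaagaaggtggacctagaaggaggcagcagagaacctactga
Mmp12: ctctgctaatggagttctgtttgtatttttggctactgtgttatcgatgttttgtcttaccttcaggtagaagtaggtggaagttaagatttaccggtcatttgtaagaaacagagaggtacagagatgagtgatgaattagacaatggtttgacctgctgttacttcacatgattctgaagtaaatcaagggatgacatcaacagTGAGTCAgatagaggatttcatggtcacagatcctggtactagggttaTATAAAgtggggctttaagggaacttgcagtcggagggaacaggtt
Mmp13: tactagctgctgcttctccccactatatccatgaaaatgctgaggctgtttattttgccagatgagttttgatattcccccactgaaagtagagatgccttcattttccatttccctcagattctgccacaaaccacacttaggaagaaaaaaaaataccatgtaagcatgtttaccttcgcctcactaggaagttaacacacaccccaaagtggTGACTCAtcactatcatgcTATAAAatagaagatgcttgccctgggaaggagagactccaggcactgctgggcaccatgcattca

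Its neighbour Mmp12 was called at 4 days, and Mmp13 at none of the times. Mmp12 stood at 0.844 to 1.57 CPM in saline (median 1.29) and at 3.51, 1.62, 2.68 and 1.93 CPM in 4-day A to D, all above saline. Mmp12 rose by 0.96 (SE 0.24, adjusted p = 0.0257) at 4 days, with later values of -0.30 at 8 days (adjusted p = 0.721) and -0.45 at 11 days (adjusted p = 0.333). It was lower at 11 than at 4 days by a log2 fold change of -1.41 (SE 0.24, adjusted p = 0.00247). The 4-day call of Mmp12 was lost on leaving out any 1 of saline A and D and 4-day A and C (adjusted p from 0.0595 to 0.107). Mmp13 was measured on 0 to 34 counts per library.
In addition, 4 other motifs were searched for on both strands of the 32 member windows. CAGACA was in 4 windows (12.5%, against 21% of all windows), CATTCC in 2 (6.25%, against 14.7%), GAGGAAG in 4 (12.5%, against 13.6%) and CACGTG in 1 (3.12%, against 7.15%).

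Mmp23, Mmp19 and Mmp11 were called higher at 4 days and at neither later time. Mmp23, which encodes a membrane-anchored MMP, rose by 1.40 (adjusted p = 0.00163) and gave 0.48 at 8 days (adjusted p = 0.43) and 0.56 at 11 days (adjusted p = 0.0978). Mmp19, an MMP of basement membrane substrates, rose by 1.13 (adjusted p = 0.00634) and gave 0.51 (adjusted p = 0.311) and 0.43 (adjusted p = 0.172) at the later times. The calls of Mmp23 and Mmp19 at 4 days held under every alternative. Mmp11, the furin-activated stromelysin-3, rose by 0.54 (adjusted p = 0.0474) and stood at 0.45 (adjusted p = 0.404) and 0.32 (adjusted p = 0.311), and its 4-day call was lost on leaving out any 1 of saline A, B and D and 4-day A, C and D (adjusted p from 0.0908 to 0.163), with effective lengths as offsets (0.0719) and with all groups in one fit (0.0534). Mmp15, a membrane-type MMP, fell by 0.30 (adjusted p = 0.0381) at 4 days and by 0.42 (adjusted p = 0.00541) at 11 days. At 8 days it stood at -0.34 (adjusted p = 0.0998, but 0.0319 with all groups in one fit and 0.0362 in DESeq2). With library size only, Mmp15 stood at -0.09 (adjusted p = 0.689) at 4 days and at an adjusted p of 0.0991 at 11 days. Its 4-day call was also lost on leaving out any 1 of saline A, C and D and 4-day A and D (adjusted p from 0.0633 to 0.139), with effective lengths as offsets (0.0792) and in the fit with the replicate letter as a block (0.0604). Mmp11 shares 155 exon bases with Chchd10 and Mmp19 shares 789 with Tmem198b, both on the opposite strand and with 83883 and 2552 counts over all libraries against 2202 and 1740, and the part of those reads was not tested.

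Among the ADAMTS genes, 10 of 18 were higher than in saline at 4 days and none was lower, beside 6.05% and 3.40% of all genes. Adamts2 encodes the main procollagen N-proteinase, which removes the amino-terminal propeptide of fibrillar collagens. It stood at 8.21, 11.7, 9.28 and 9.75 CPM in saline A to D, at 45.3, 20.3, 42.5 and 34.6 CPM in 4-day A to D, at 14.9, 11.9 and 22.6 CPM in 8-day A to C, and at 10.9, 9.42, 15 and 11.7 CPM in 11-day A to D. The 4-day and 8-day hearts exceeded all saline hearts, and the 11-day hearts overlapped them. The change was 1.89 (SE 0.20, adjusted p = 0.000203) at 4 days, 0.76 (SE 0.18, adjusted p = 0.0421) at 8 days and 0.28 (SE 0.14, adjusted p = 0.325) at 11 days, and from 4 to 11 days Adamts2 fell by 1.61 (SE 0.20, adjusted p = 0.000469). The 8-day call was lost on leaving out any 1 of saline A, C and D and 8-day A and C (adjusted p from 0.0705 to 0.245) and with library size only (0.0743), filterByExpr (0.0577), effective lengths as offsets (0.078), robust dispersions (0.166) or all groups in one fit (0.0796). The related N-proteinase genes Adamts3 and Adamts14 were not called at any time.

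Adamts12, whose product can cut cartilage oligomeric matrix protein, rose at all times. It stood at 1.91, 1.44, 1.89 and 1.56 CPM in saline A to D, at 11.1, 3.62, 10.3 and 8.21 CPM in 4-day A to D, at 3.63, 2.96 and 4.08 CPM in 8-day A to C, and at 2.59, 2.86, 4.41 and 2.91 CPM in 11-day A to D. No treated heart fell into the saline range. The change was 2.28 (SE 0.28, adjusted p = 0.000413) at 4 days, 1.04 (SE 0.18, adjusted p = 0.00682) at 8 days and 0.87 (SE 0.18, adjusted p = 0.0152) at 11 days. With all groups in one fit the later calls were lost (adjusted p = 0.0562 and 0.0706), and with effective lengths as offsets the 8-day call was lost (0.0841). From 4 to 11 days Adamts12 fell by 1.41 (SE 0.27, adjusted p = 0.00456, 0.07 with robust dispersions).

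**Figure D4:**
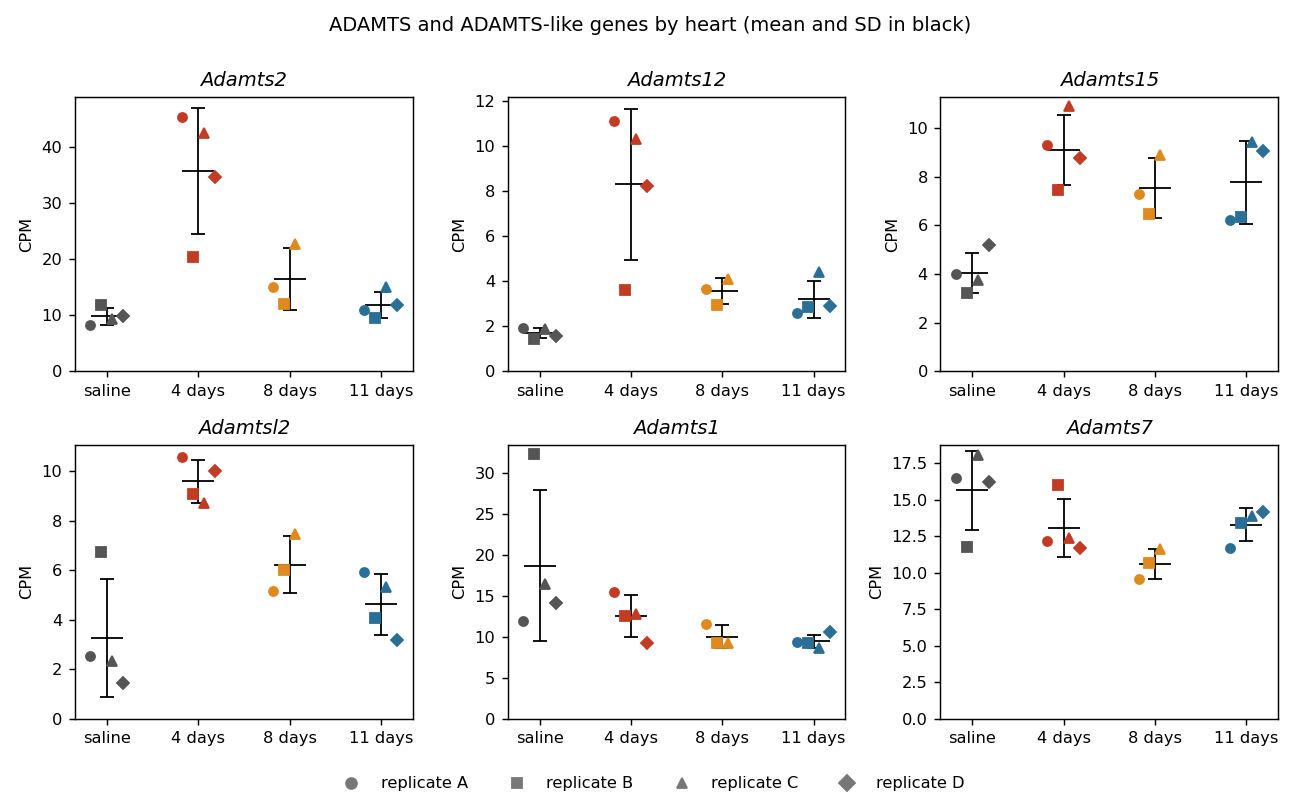
Level of 5 ADAMTS genes and Adamtsl2 in each heart, in CPM on linear axes that start at 0, with 1 symbol per replicate and the group mean and SD in black. Adamts2 and Adamts12 peak at 4 days with 4-day B the lowest of its group, Adamts15 stays above saline at all times, and 1 saline heart of Adamts1 stands at 32.3 CPM.

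The proteoglycan-cleaving branch (Adamts1, 4, 5, 8, 9, 15 and 20) had 4 of 7 genes called higher at 4 days, 2 at 8 days and 1 at 11 days, beside 6.05%, 1.07% and 1.80% of all genes. None was called lower at 4 or 8 days and 1, Adamts1, at 11 days, when the median log2 fold change of the 7 was -0.33. Adamts15 cuts aggrecan and versican, and it was higher at all 3 times. Its values were 4.00, 3.21, 3.75 and 5.19 CPM in saline A to D, 9.33, 7.45, 10.9 and 8.77 CPM in 4-day A to D, 7.29, 6.47 and 8.90 CPM in 8-day A to C, and 6.24, 6.36, 9.42 and 9.06 CPM in 11-day A to D. Every treated heart lay above every saline heart. The change was 1.20 (SE 0.15, adjusted p = 0.000428), 0.92 (SE 0.16, adjusted p = 0.00836) and 0.96 (SE 0.16, adjusted p = 0.00546) at 4, 8 and 11 days, and only the 8-day call was lost under an alternative, without 8-day C (adjusted p = 0.0647). Adamts8, which lies 20.1 kb from Adamts15 on chromosome 9, rose at 4 days by 1.58 (adjusted p = 0.00312), stood at 0.42 (adjusted p = 0.689) at 8 days and -0.49 (adjusted p = 0.496) at 11 days, and was lower at 11 than at 4 days by a log2 fold change of -2.06 (adjusted p = 0.000793).

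Adamts5 and Adamts1 are neighbours too, 53.1 kb apart on chromosome 16, and the former was called higher and the latter lower, at different times. Adamts5, an aggrecanase, rose by 0.90 (adjusted p = 0.00071) at 4 days and 0.55 (adjusted p = 0.0299) at 8 days and stood at 0.31 (adjusted p = 0.102; 0.0235 without saline D) at 11 days. Its 8-day call was lost on leaving out any 1 of saline A and C and the 8-day hearts (adjusted p from 0.0508 to 0.154), with library size only (0.616) and with effective lengths as offsets (0.0646). Adamts1, which also cuts versican, stood at 11.9, 32.3, 16.5 and 14.1 CPM in saline A to D, at 15.5, 12.6, 12.8 and 9.29 CPM in 4-day A to D, at 11.6, 9.22 and 9.19 CPM in 8-day A to C, and at 9.33, 9.22, 8.64 and 10.6 CPM in 11-day A to D. Saline B was far above the other saline hearts, and all 8-day and 11-day hearts were below all saline hearts. Adamts1 stood at -0.56 (SE 0.25, adjusted p = 0.209) at 4 days and at -0.90 (SE 0.27, adjusted p = 0.116) at 8 days. The 8-day value passed without saline A (0.0455), with library size only (0.00107) and with no filter (0.0129). It also passed with DESeq2 with effective lengths (0.0255) and with the replicate letter as a block (0.0116). At 11 days Adamts1 fell by 0.98 (SE 0.24, adjusted p = 0.0335). That call was lost on leaving out any 1 of saline C and the 11-day hearts (adjusted p from 0.0534 to 0.0902), with library size only (0.0546) and with robust dispersions (0.206), and without saline B the value was -0.59 (adjusted p = 0.00761).

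Of the other ADAMTS genes called at 4 days, Adamts4, an aggrecanase gene, rose by 1.98 (adjusted p = 0.00973) on 0 to 48 counts per library and gave 0.74 (adjusted p = 0.701) and then 1.31 (adjusted p = 0.177) at the later times. Adamts19 rose by 1.17 (adjusted p = 0.00758) and stood at -0.75 (adjusted p = 0.559) and 0.16 (adjusted p = 0.861). Adamts10, whose product binds fibrillin, rose by 0.50 (adjusted p = 0.0126, 0.0587 with effective lengths as offsets) and stood at 0.26 (adjusted p = 0.358) and 0.09 (adjusted p = 0.691). Adamts6, closely related to Adamts10, rose by 0.50 (adjusted p = 0.0178) and stood at 0.19 (adjusted p = 0.647) and 0.15 (adjusted p = 0.526). Its 4-day call was lost on leaving out any 1 of saline A and 4-day A, C and D (adjusted p from 0.0529 to 0.0685) and with effective lengths as offsets (0.271 in edgeR, 0.231 in DESeq2).

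Adamts16 had no count in any saline heart and 15, 0, 7 and 1 counts in 4-day A to D. Its 4-day level over the pooled group was 0.0787 CPM. Against the floor of 0.013 CPM that 3 counts over the saline group would give, the fold over saline was at least 6.08. This bound was not tested. The edgeR test of 4 days against saline called Adamts16 higher (adjusted p = 0.049). This call was lost on leaving out any 1 of the saline hearts and 4-day A, C and D (adjusted p from 0.0567 to 0.16), with effective lengths as offsets (0.0627) and with the replicate letter as a block (0.0867). At 8 and 11 days Adamts16 had 1 count per group, so no fold is given. Intervals and floors of this kind cover counting error only.

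Adamts7, which also cuts cartilage oligomeric matrix protein, was called lower at 8 days. It stood at 16.5, 11.8, 18.1 and 16.2 CPM in saline A to D, at 12.2, 16.0, 12.4 and 11.7 CPM in 4-day A to D, at 9.55, 10.7 and 11.6 CPM in 8-day A to C, and at 11.7, 13.4, 13.9 and 14.2 CPM in 11-day A to D. The 8-day hearts lay below all saline hearts, with saline B close to them, and the other groups overlapped saline. Adamts7 stood at -0.27 (SE 0.13, adjusted p = 0.252) at 4 days and -0.25 (SE 0.11, adjusted p = 0.283) at 11 days, and fell by 0.57 (SE 0.14, adjusted p = 0.0467) at 8 days. Without saline B it was also called lower at 4 days, at -0.39 (adjusted p = 0.0372), and at 11 days, at -0.36 (adjusted p = 0.0268). The 8-day call was lost on leaving out any 1 of saline A, C and D and the 8-day hearts (adjusted p from 0.0814 to 0.167), with library size only (0.224) and under filterByExpr (0.0593).

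Adamtsl2, whose product binds fibrillin and latent TGF-β binding protein, was the only ADAMTS-like gene of 5 that was called. It stood at 2.52, 6.76, 2.33 and 1.44 CPM in saline A to D, at 10.6, 9.09, 8.71 and 10 CPM in 4-day A to D, at 5.18, 6.01 and 7.46 CPM in 8-day A to C, and at 5.92, 4.08, 5.33 and 3.19 CPM in 11-day A to D. All 4-day hearts lay above all saline hearts, and saline B reached into the range of the later groups. The change was 1.58 (SE 0.32, adjusted p = 0.00645, 0.0821 with robust dispersions) at 4 days, 0.94 (SE 0.36, adjusted p = 0.253) at 8 days and 0.51 (SE 0.34, adjusted p = 0.516) at 11 days. Without saline B, Adamtsl2 was called higher at both later times, at 1.51 (adjusted p = 0.000692) for 8 days and 1.07 (adjusted p = 0.0124) for 11 days. DESeq2 with effective lengths also called Adamtsl2 higher at 8 days (adjusted p = 0.018). From 4 to 11 days Adamtsl2 fell by 1.07 (SE 0.16, adjusted p = 0.00105). Adamtsl1, Adamtsl3, Adamtsl4 and Adamtsl5 stood between -0.19 and 0.36 over the 3 times and were not called.

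**Figure D5:**
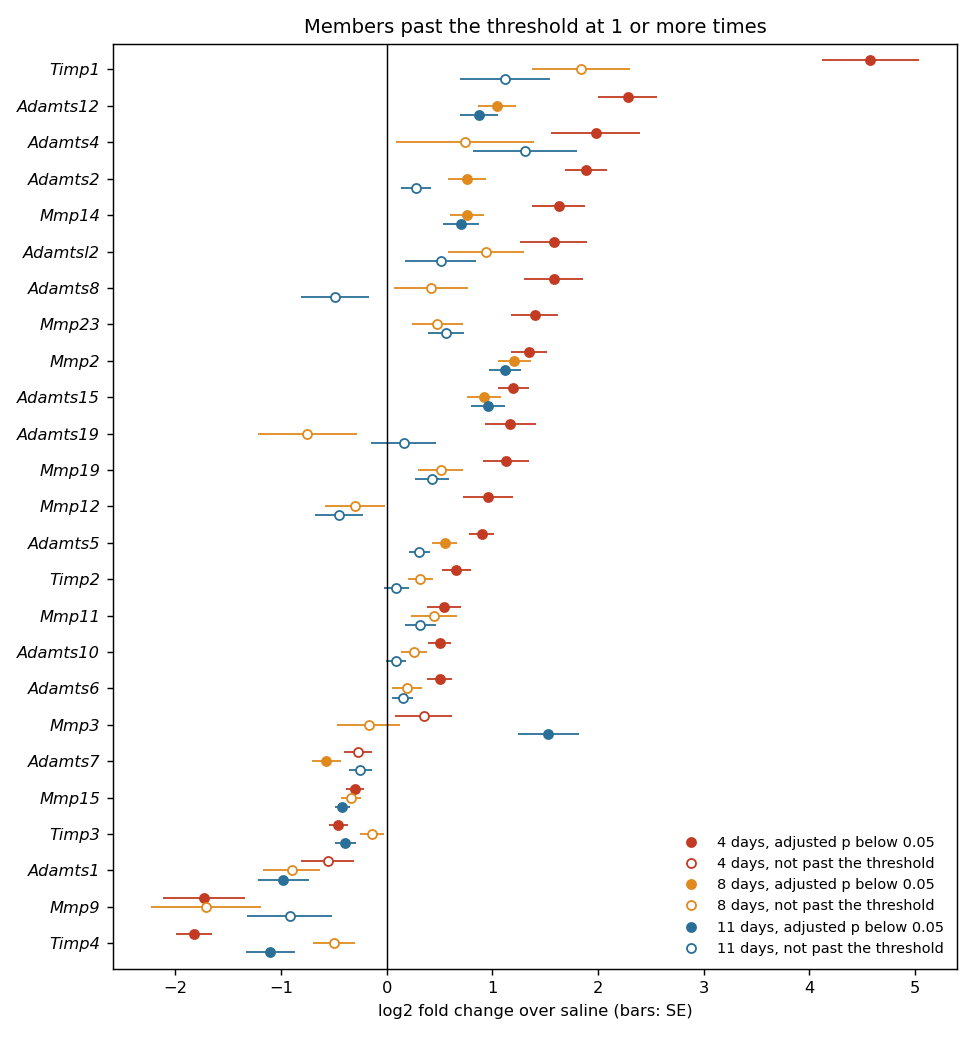
Log2 fold change over saline, with its SE, of the members called at 1 or more times, except Adamts16, which has no saline count. Filled points passed an adjusted p of 0.05 and open points did not, and most genes on the upper side have their largest value at 4 days, with Mmp3 largest at 11 days. The genes shown were chosen by these same calls, most of which were at 4 days. The time of the largest value therefore follows in part from that choice.

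The 19 members called at none of the 3 times were Adamts3, 9, 13, 14, 17 and 20, Adamtsl1, 3, 4 and 5, and Mmp8, 13, 16, 17, 21, 24, 25, 27 and 28. Several of them are well measured. Mmp28, or epilysin, had saline values of 1.85, 1.85, 1.96 and 2.15 CPM and log2 fold changes of -0.07, 0.23 and 0.13 at 4, 8 and 11 days (adjusted p = 0.86, 0.704 and 0.7). Adamts9, a proteoglycan-cleaving gene of vessels, stood at 16.5 to 27.6 CPM in saline and at 0.04, -0.02 and -0.33 (adjusted p = 0.921, 0.979 and 0.238). Not all of the 19 stood so near 0. At 4 days Mmp16 was at 0.90 (SE 0.28, adjusted p = 0.0589) and Mmp27, on few counts, at 1.57 (SE 0.54, adjusted p = 0.0912). Adamts3 was at -0.31 (adjusted p = 0.203) at 4 days, with all 4-day and 8-day hearts below all saline hearts.

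Set directly against each other, the treated groups gave most of their calls between 4 and 11 days. At 11 days 16 members were lower than at 4 days and 2 were higher (35.6% and 4.4%), beside 6.55% and 3.75% of all genes. The 2 higher were Timp4 and Mmp3. The 16 lower were Timp1, Timp2, Mmp12, Mmp14, Mmp19, Mmp23, Adamts1, Adamts2, Adamts5, Adamts6, Adamts8, Adamts9, Adamts10, Adamts12, Adamts19 and Adamtsl2. The count of 18 dropped to 9 without 4-day A or 11-day A, to 10 without 4-day C, and to 11 without 11-day B or D. Over all genes, 1760 were lower and 1006 higher with every heart in. These became 993 and 444 without 4-day A, and 1240 and 671 without 11-day A. Of those not yet given, Adamts5 was at -0.59 (adjusted p = 0.00327), Adamts10 at -0.40 (adjusted p = 0.007), Mmp23 at -0.85 (adjusted p = 0.0215), Mmp19 at -0.70 (adjusted p = 0.0325), Adamts19 at -1.01 (adjusted p = 0.0288), Adamts9 at -0.37 (adjusted p = 0.0221), Adamts6 at -0.34 (adjusted p = 0.0334) and Adamts1 at -0.42 (adjusted p = 0.0394). Without 4-day A, none of Mmp23, Mmp19, Adamts19, Adamts9, Adamts6 and Adamts1 passed (adjusted p from 0.0764 to 0.144). With effective lengths as offsets, the calls of Adamts10 (adjusted p = 0.222), Mmp19 (0.185) and Adamts6 (0.397) were lost.

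Between 4 and 8 days 1 member was higher (Timp4) and 1 lower (Timp1), beside 0.0596% and 0.190% of all genes. The median log2 fold change of the members was -0.33 from 4 to 8 days, against -0.37 from 4 to 11 days, but the families differed. In that order it was -0.34 and -0.64 for the ADAMTS genes and -0.41 and -0.22 for the MMP genes. For the ADAMTS-like genes it was -0.09 and -0.18. Single members differed more, such as Mmp3 at -0.51 and 1.18 and Adamts8 at -1.16 and -2.06, while Mmp2 stood at -0.13 and -0.22. An unadjusted p below 0.05 was reached by 20 members from 4 to 8 days and by 23 from 4 to 11 days. Between 8 and 11 days none of the 45 was called by edgeR, beside 0.0596% of all genes higher and 0.0782% lower, and 10 members had an unadjusted p below 0.05 there, while DESeq2 called 2. The comparison of 4 with 8 days gave 9 members without 4-day B, adding Mmp12, Mmp14, Mmp23, Adamts2, Adamts12, Adamts19 and Adamtsl2, all lower at 8 days, and gave 0 without 4-day D. Over all genes, 16 were higher and 51 lower with every heart in. These became 124 and 595 without 4-day B, and 0 and 0 without 4-day D.

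Marker genes of other cells were called mostly at 4 days, as were all genes. Of all genes, 6.05%, 1.07% and 1.80% were higher at 4, 8 and 11 days, and 3.40%, 1.20% and 1.95% were lower. Of 8 markers of activated fibroblasts, 6 were higher at 4 days, with a summed level of 64.6 to 105 CPM in saline and of 1004, 248, 677 and 767 CPM in 4-day A to D. Their sum was 121 to 197 CPM at 8 days and 70.6 to 203 CPM at 11 days, with 8-day C and 11-day C the highest of their groups, and the marker Cthrc1 was at 0 CPM in saline A. 4-day B, lowest of its group in this sum, was also lowest for Timp1, Timp2, Mmp2, Mmp14, Adamts2, Adamts12 and Adamts15, and 11-day C was highest of its group for the same members. Of the other members given in every heart, 4-day B was highest of its group for Timp4, Mmp9, Mmp3 and Adamts7. It was neither highest nor lowest for Timp3, Adamts1 and Adamtsl2. In its group, 11-day C was highest for Timp3, lowest for Mmp9 and Adamts1, and neither for Timp4, Mmp3, Adamts7 and Adamtsl2. Of 10 macrophage markers, 9 were higher at 4 days, with sums of 103 to 166 CPM in saline and 204 to 349 CPM at 4 days. Of 8 fibroblast markers, 7 were higher and 1, Gsn, was lower at 4 days, and 2 were higher at 8 days and 4 at 11 days. Their median log2 fold change was 0.95 at 4 days, 0.32 at 8 days and 0.40 at 11 days. The sum was 659 to 799 CPM in saline, 763 to 908 CPM at 4 days and 895 to 1138 CPM at 11 days. Gsn held most of the saline sum, at 392 to 500 CPM in saline, 255 to 377 CPM at 4 days and 558 to 663 CPM at 11 days. All 5 markers of dividing cells were higher at 4 days, at 24.8 to 79.4 CPM against 6.33 to 13.4 CPM. At 8 days 1 activated fibroblast marker was higher, and 0 macrophage and 0 dividing cell markers were called. At 11 days 0 activated fibroblast markers were called, 1 macrophage marker was higher and 3 dividing cell markers were lower. None of 6 endothelial, 5 mesothelial, 3 adipocyte or 7 T and B cell markers passed at 4 days, 2 of 7 smooth muscle and pericyte markers were lower, and of 8 cardiomyocyte markers 1 was higher and 2 were lower. The part of these cells in the changes of the members was not tested.

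Substrates and partners of these enzymes were also called mostly at 4 days, as were all genes. Of all genes, 6.05%, 1.07% and 1.80% were higher at 4, 8 and 11 days, and 3.40%, 1.20% and 1.95% were lower. The list counts that follow stand beside these shares. All 7 fibrillar and basement membrane collagens of the substrate list were higher at 4 days, with a median log2 fold change of 2.83, 4 were higher at 8 days (median 1.04) and 0 at 11 days (median 0.64), against -0.01 to 0.006 for all genes. Col3a1 gave log2 fold changes of 3.91, 1.60 and 0.75 in order of time (adjusted p = 0.000111, 0.00909 and 0.171), Col1a1 of 3.43, 1.29 and 0.64 (adjusted p = 0.000228, 0.0456 and 0.155) and Col5a2 of 2.92, 1.08 and 0.70 (adjusted p = 0.000184, 0.0222 and 0.0589). Of 7 proteoglycan substrates of ADAMTS enzymes, 5 were higher at 4 days (median 1.74), 3 at 8 days and 2 at 11 days. Acan, the gene of aggrecan, stood at 4.35, 4.91 and 3.99 (adjusted p = 0.000547, 0.000326 and 0.000315), whereas Vcan, the gene of versican, stood at 1.74, 0.11 and 0.08 (adjusted p = 0.000672, 0.881 and 0.893), and Bgn, the gene of biglycan, at 1.87, 1.11 and 0.56 (adjusted p = 0.000148, 0.00129 and 0.0302).

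Of 5 procollagen processing genes tested, Bmp1, the procollagen C-proteinase, and its enhancer Pcolce were higher at 4 days (1.07 and 1.26, adjusted p = 0.000588 and 0.000526) and none at 8 or 11 days. Pcolce2 stood at 0.31 (adjusted p = 0.121) at 4 days. Among 7 fibrillin microfibril genes, 4 were higher at 4 days (median 1.02), 2 at 8 days and none at 11 days, when Papln was lower. Ltbp2 stood at 4.01 (adjusted p = 0.000184), Fbn1 at 2.47 (adjusted p = 0.000192) and Ltbp3 at 1.02 (adjusted p = 0.000771) at 4 days. Of 10 ADAM proteinase genes, 4 were higher at 4 days, and Adam19 was higher at all times (0.88, 0.66 and 1.06, adjusted p = 0.00528, 0.0455 and 0.00136). Adam12 stood at 3.12 (adjusted p = 0.000806) and Adam9 at 0.50 (adjusted p = 0.00567) at 4 days.

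Of 15 genes of MMP activation, inhibition and clearance, 3 were higher at 4 days and 2 lower (median 0.34). The higher genes were Serpine2, a serine proteinase inhibitor (0.79, adjusted p = 0.00448), Lrp1, the receptor that clears many proteinases and TIMPs (0.70, adjusted p = 0.00627), and Pcsk5, a proprotein convertase. The lower genes were Bsg, an inducer of MMP synthesis, and A2m, a general proteinase trap (-4.45, adjusted p = 0.00813). At 8 days 1 was higher and 1 lower, and at 11 days 0 were higher and 2 lower.

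RSEM also divided each gene's reads among its transcripts, and these shares are given as a description. The main coding transcript Adamts2-201 took 69.5 to 75.1% of Adamts2 in saline, 85.4 to 90.3% at 4 days, 72.0 to 81.6% at 8 days and 62.1 to 79.2% at 11 days, and the remainder was almost all Adamts2-204, a transcript annotated without a coding sequence. Adamts12-201, the coding transcript, took 50.9 to 78.4% in saline, 77.4 to 95.1% at 4 days and 39.3 to 60.5% at 11 days, with the rest mostly in transcripts that retain an intron. The 4-day hearts lay above all saline hearts for Adamts2, whereas for Adamts12 the saline and 4-day ranges overlapped. Mmp14-201 took 68.4 to 82.4% in saline and 81.2 to 91.2% at 4 days. Timp2-201 took 54.5 to 64.8% in saline and 45.3 to 50.4% at 4 days, with Timp2-202 as the only other transcript. Timp1-201 took 27.5 to 100% of Timp1 in saline and 0 to 41.5% at 8 days, where counts were low, and 36.4 to 61.2% at 4 days, with Timp1-202 as the remainder. Timp4-201 took 43.0 to 66.2% over all hearts. Adamts1-201 took 78.6 to 100% and Adamtsl2-201 51.0 to 89.8% over all hearts, while Adamts7 was spread over 5 transcripts and Mmp9 had too few counts for its shares to be read.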

How the data were processed

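Total RNA of 15 mouse hearts was sequenced with an Illumina total RNA kit. Per the submitters' processing notes and the methods, reads were trimmed with cutadapt 4.1, aligned to GRCm38.p6 by HISAT2 2.2.1 and quantified by RSEM 1.3.3. For every gene the authors deposited expected counts, not normalized, and FPKM values derived from them by length and library total. The authors also deposited effective lengths, and for each transcript its percent share of its gene. Whether counting used strand is not given in the sources used here. Reads of members that overlap a gene on the opposite strand are therefore uncertain, and not every such overlap is reported here.

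After rounding, all genes with 10 or more counts over the 15 libraries were tested with edgeR 4.0.16 in R 4.3.3 (TMM, glmQLFit, two-sided, Benjamini-Hochberg, threshold 0.05), with a separate fit for each of 6 pairs of groups. SE is the log2 fold change divided by the square root of F. Values in every heart are given for the TIMPs, Mmp2, Mmp9, Mmp14 and, at each time, the 6 called members with the largest change against saline and a mean of at least 1 CPM. Other called members are given by fold and adjusted p, and each pathway list by counts, median and the 3 genes with the smallest p at 4 days. The motifs, and Papln, Bsg and Pcsk5, were chosen after their values were seen. Members and lists were chosen with earlier results of these data known. Gene positions were those of GENCODE M21 (55141 of 55401 identifiers matched), and the fits were tested on simulated data. Alternatives were library size only, DESeq2 size factors in edgeR, no filter, filterByExpr, effective lengths as offsets, all groups in one fit, robust dispersions, DESeq2 1.42.0 with effective lengths, the replicate letter as a block, and each library left out in turn. Groups of 3 or 4 hearts limit the precision. The p-values set the difference between groups against the spread between these hearts, which edgeR estimates with information shared across genes.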

Additional observations from a re-analysis of the deposited data

Results flagged for a closer look

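Timp2 in 11-day C, at 43.3 CPM, stood far from the other 11-day hearts (28.7 to 30.7 CPM). The gap was 0.840 of the range on a log scale, above Dixon's critical value for 4 samples. It was the only far library among 42 groups of 4 hearts searched over the 14 members with values in every heart, and chance flags about 1 in 20 groups.

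Several members differed between treated times when the times were compared directly by edgeR. From 4 to 8 days the log2 fold change was -2.70 for Timp1 (adjusted p = 0.042) and 1.31 for Timp4 (adjusted p = 0.0167). From 4 to 11 days it was -3.44 for Timp1 (adjusted p = 0.000365), -0.57 for Timp2 (adjusted p = 0.0299), 0.72 for Timp4 (adjusted p = 0.03), -0.93 for Mmp14 (adjusted p = 0.0235) and 1.18 for Mmp3 (adjusted p = 0.0121). Over the same interval Adamts2 stood at -1.61 (adjusted p = 0.000469), Adamts12 at -1.41 (adjusted p = 0.00456), Adamtsl2 at -1.07 (adjusted p = 0.00105) and Adamts1 at -0.42 (adjusted p = 0.0394).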

How the results depend on the processing

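The count of members higher than in saline at 4 days was 15 to 21 under every alternative, against 19. The 4 members lower at 4 days became 2 with library size only and 2 with effective lengths as offsets. At 8 days, the 6 higher members became 3 with effective lengths as offsets and 3 with all groups in one fit, and 2 (without 8-day C) to 8 (without saline B) with 1 library left out. The 1 lower member became 2 with no filter, 0 under filterByExpr, 2 with all groups in one fit and 3 with DESeq2, and 0 to 1 with 1 library left out. At 11 days, the 5 higher members became 3 with all groups in one fit, and the 4 lower members became 1 with library size only, 2 with robust dispersions and 2 with effective lengths as offsets, and 1 to 4 with 1 library left out (1 without 11-day B). Calls over all genes moved as well. At 4 days 914 genes were lower, 293 with library size only and 668 with effective lengths as offsets. At 8 days 288 were higher, 157 with effective lengths as offsets and 473 with all groups in one fit. At 11 days 523 were lower, 220 with library size only and 576 with robust dispersions.

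Between 4 and 8 days the 2 calls became 10 with library size only, 9 with no filter, 1 under filterByExpr, 1 with effective lengths as offsets, 6 with all groups in one fit and 7 with DESeq2, and 0 to 9 with 1 library left out. Between 4 and 11 days the 18 calls ran from 9 to 22 with 1 library left out. Between 8 and 11 days the 0 calls became 1 with library size only, 1 with DESeq2 size factors, 1 with no filter, 1 with robust dispersions and 2 with DESeq2, and 0 to 1 with 1 library left out. Calls over all genes moved under these settings too. From 4 to 8 days, 16 genes were higher and 51 lower in the reported fit. These became 22 and 513 with library size only, 138 and 525 with no filter, and 3 and 0 under filterByExpr. From 8 to 11 days, 16 and 21 became 145 and 152 with no filter. The cause of these moves was not tested.

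The fit with the replicate letter as a replicate block gave 2 lower members at 8 days, 9 between 4 and 8 days and 2 between 8 and 11 days. Deviations of same-lettered hearts from their group means correlated from -0.293 to 0.247 across 13299 genes. Differently lettered hearts were not correlated for comparison, so these values do not decide whether the letters pair the hearts. For the members named here, 2393 of 2651 repeated values kept their side of the threshold, 182 lost the call and 76 gained one. No value called in the reported fit or in the alternative changed sign between them, whereas some values called in neither did, such as Timp2 at 11 days (0.09, and -0.06 without 11-day C). Members of a few counts per library, such as Adamts16, Adamts4, Mmp9, Mmp8 and Mmp13, are limited by depth.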
